A study of Mus musculus with 135 samples.

Results

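The widest H3K4me3 domains of mouse cardiomyocytes were taken as the 500 autosomal peaks of the cardiomyocyte peak list with the largest distance from start to end on the mm10 reference genome. They were 500 of 23306 autosomal peaks of that list, and of 187253 peaks in the lists of all 4 cell types. The series profiled H3K4me3 by ChIP-seq, in which DNA bound by the marked histone is pulled down with an antibody and sequenced, from chromatin cut with micrococcal nuclease. It holds 123 such samples and 12 of input chromatin. The cardiomyocyte libraries came from female mice aged 8 weeks, with 3 libraries each of the inbred founder strains C57BL/6J (B6) and DBA/2J (D2) and of the recombinant inbred lines BXD75 and BXD87, which carry fixed mosaics of both founder genomes. Hepatocytes had the same strains, sex, age and number of libraries. Embryonic stem cells (embryonic day 3.5) had 5 libraries for each of these strains, and the germ cells compared here were crude isolates from B6 and D2 males at 14 days after birth (3 libraries each). All cardiomyocyte, hepatocyte and stem cell libraries used antibody lot 2746331 and the KAPA kit, whereas the founder germ cell libraries used lot 2557645 and the NEXTflex kit, so lot, kit and sex go with the germ cells and cannot be told apart from them. The labels do not say whether libraries of a strain came from separate animals, so p-values measure the spread between libraries, which may be technical. The domains were chosen by their measured width in cardiomyocytes, so their widths are given as a description.

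H3K4me3 is laid down by the SET1 and MLL complexes around the start sites of active genes, most often as a narrow peak over a CpG-rich promoter. A minority of promoters carry the mark far into the gene body, and such broad domains are known to lie at genes that define a cell type and are transcribed steadily. In the heart these include the transcription factors that specify cardiac muscle and the genes of its excitation and contraction.

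The cardiomyocyte domains were 18.3 to 78.4 kb wide with a median of 23.9 kb, against 3.29 kb for all autosomal cardiomyocyte peaks. They held 12.6% of all bases in autosomal peaks (13.6 of 108 Mb). The 500 widest autosomal peaks of hepatocytes had a median of 16.8 kb and made up 8.29% of peak bases, those of stem cells 17.8 kb and 5.59%, and those of germ cells 7.12 kb and 2.96%. The plot of width by rank shows the cardiomyocyte curve above the others at rank 500 and, more narrowly, at ranks 1000 and 2000, with 13.3 kb at rank 1000 against 11.4 kb in hepatocytes and 11.5 kb in stem cells. At rank 5000 it lay below, with 5.88 kb against 6.71 kb in hepatocytes and 5.92 kb in stem cells. At the edge of the choice, the narrowest domains were those of Fam53b (18324 bp), A430078I02Rik with 2310040G24Rik (18322 bp) and Tango2 with Arvcf (18292 bp). The widest peaks left out were those of Arhgef3 (18290 bp), Crybg3 (18235 bp) and Sp2 (18227 bp), so the edge cuts a continuous range.

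**Figure D1:**
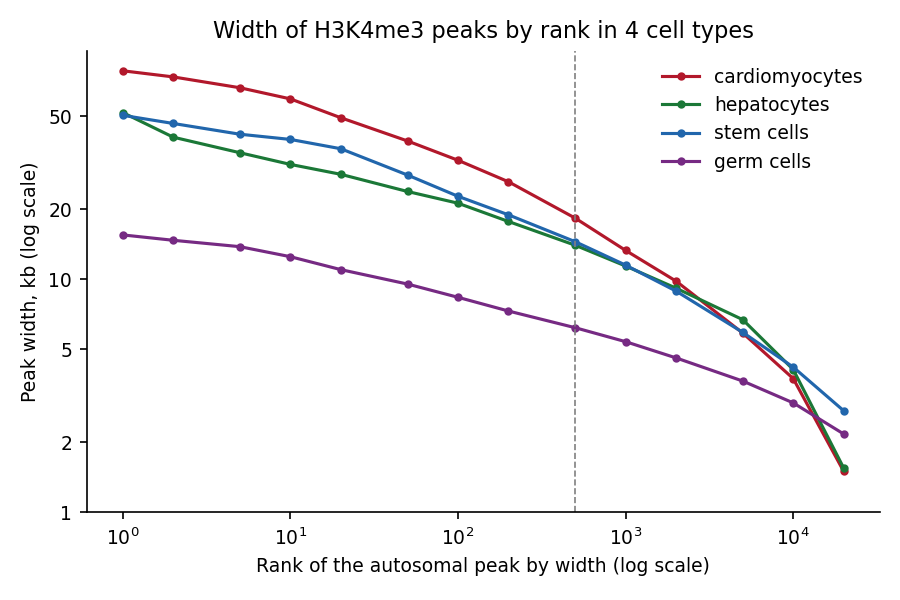
Peak width in kb (vertical, log scale) against the rank of an autosomal peak by width (horizontal, log scale) in the 4 cell types, with a dashed line at rank 500. The cardiomyocyte peak at that rank measured 18.3 kb, against 14.0 kb in hepatocytes, 14.5 kb in stem cells and 6.20 kb in germ cells.

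Sequence is shown first at 6 promoters whose domains recur below and at the far end of the Zmiz1 domain, to show their CpG content at the start of the gene and at the end of the mark. Promoter windows are RefSeq sequence of GRCm38.p6 (the build of mm10), from 250 bases before to 50 bases after the annotated start, and the far end is the last 300 bases of the domain in the same build. CpG dinucleotides are in capitals.
Zmiz1 promoter, chr14:25458935-25459234, plus strand: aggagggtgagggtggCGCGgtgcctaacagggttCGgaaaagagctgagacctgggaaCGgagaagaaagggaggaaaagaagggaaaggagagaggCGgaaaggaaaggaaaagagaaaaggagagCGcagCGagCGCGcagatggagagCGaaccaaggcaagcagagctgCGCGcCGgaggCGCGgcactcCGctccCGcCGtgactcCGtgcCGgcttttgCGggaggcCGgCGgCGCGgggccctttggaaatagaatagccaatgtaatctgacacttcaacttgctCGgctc
Zmiz1 domain, far end, chr14:25529112-25529411, plus strand: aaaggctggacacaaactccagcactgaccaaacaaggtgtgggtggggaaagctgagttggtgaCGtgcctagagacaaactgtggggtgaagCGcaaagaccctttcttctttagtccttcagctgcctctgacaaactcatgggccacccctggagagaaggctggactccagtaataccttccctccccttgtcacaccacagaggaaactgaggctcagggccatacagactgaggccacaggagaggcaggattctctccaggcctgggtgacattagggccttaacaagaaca
Irx4 promoter, chr13:73260247-73260546, plus strand: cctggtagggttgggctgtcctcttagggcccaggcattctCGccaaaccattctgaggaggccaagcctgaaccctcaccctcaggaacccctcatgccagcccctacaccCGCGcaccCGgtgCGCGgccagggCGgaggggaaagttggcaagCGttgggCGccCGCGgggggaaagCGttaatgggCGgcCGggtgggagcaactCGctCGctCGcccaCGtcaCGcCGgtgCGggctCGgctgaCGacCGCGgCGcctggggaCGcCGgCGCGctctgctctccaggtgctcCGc
Hand2 promoter, chr8:57320733-57321032, plus strand: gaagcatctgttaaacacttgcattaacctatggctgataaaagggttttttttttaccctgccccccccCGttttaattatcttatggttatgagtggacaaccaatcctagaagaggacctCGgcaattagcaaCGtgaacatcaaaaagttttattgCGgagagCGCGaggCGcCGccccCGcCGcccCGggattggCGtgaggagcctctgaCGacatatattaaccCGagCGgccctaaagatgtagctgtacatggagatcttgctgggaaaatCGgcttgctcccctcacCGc
Tbx20 promoter, chr9:24774254-24774553, minus strand: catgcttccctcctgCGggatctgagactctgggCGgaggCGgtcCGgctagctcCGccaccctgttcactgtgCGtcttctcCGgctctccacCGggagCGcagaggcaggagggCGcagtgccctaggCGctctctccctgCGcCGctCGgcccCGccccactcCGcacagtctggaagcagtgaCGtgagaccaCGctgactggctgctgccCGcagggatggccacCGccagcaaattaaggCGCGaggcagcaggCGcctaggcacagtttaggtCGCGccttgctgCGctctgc
Csrp3 promoter, chr7:48848002-48848301, minus strand: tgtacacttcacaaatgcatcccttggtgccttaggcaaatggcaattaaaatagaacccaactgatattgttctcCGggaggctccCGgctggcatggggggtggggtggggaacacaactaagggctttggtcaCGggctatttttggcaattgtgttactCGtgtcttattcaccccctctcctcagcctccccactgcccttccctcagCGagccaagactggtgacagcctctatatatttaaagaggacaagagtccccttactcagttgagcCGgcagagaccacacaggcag
Ldb3 promoter, chr14:34588632-34588931, minus strand: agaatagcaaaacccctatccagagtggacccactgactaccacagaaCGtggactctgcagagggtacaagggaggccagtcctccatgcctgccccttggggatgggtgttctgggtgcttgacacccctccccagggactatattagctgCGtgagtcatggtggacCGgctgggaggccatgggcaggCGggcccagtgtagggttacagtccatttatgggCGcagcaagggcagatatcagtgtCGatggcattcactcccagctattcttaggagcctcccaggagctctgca
Zmiz1, which encodes a transcriptional coactivator, had 26 CpGs in its promoter window and 2 in the 300 bases at the far end of its domain. Irx4, a homeobox factor of the cardiac ventricles, had 31 in its promoter window. The windows of Hand2 and Tbx20, also cardiac transcription factors, held 17 and 26 CpGs. The windows of Csrp3 and Ldb3, which encode Z disc proteins of the sarcomere, held 6 each. None of the 6 promoter windows held the letters TATAAA on either strand. Of 605 coding genes with a promoter at a domain, 482 had a promoter window in the table. Their windows held a median of 22.0 CpGs (quartiles 13.0 and 31.0), against 7.00 over 25748 autosomal windows. The letters TATAAA occurred in 7.26% of the windows at domains and in 14.2% of all autosomal windows. All autosomal windows include genes without a cardiomyocyte promoter peak, so neither comparison sets wide peaks against narrow ones. Over their whole width the domains had a median of 16.4 CpGs per kb, against 19 for all autosomal cardiomyocyte peaks.

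MicroRNA genes lay inside some domains. Of 919 autosomal hairpins in the RefSeq table, 29 lay within 23 domains. Mature sequences are shown, with the seed (bases 2 to 8) in capitals, for 6 of them, chosen after their places were seen because they are well studied.
let-7b-5p: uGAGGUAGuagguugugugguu
let-7c-5p: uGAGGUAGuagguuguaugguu
miR-195a-5p: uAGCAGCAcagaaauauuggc
miR-497a-5p: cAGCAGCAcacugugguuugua
miR-126a-3p: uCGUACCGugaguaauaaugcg
miR-139-5p: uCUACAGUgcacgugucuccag
The let-7b and let-7c hairpins share the seed GAGGUAG and lay near the end of the 66.3 kb domain at Gm49539, a long noncoding RNA whose nearest coding start is that of Ppara. The miR-195a and miR-497a hairpins share the seed AGCAGCA and lay in the 24.7 kb domain that holds the promoter of Slc16a13, a monocarboxylate transporter. The hairpin of miR-126a, the abundant microRNA of endothelium, lay in the 27.5 kb domain of its host gene Egfl7. The hairpin of miR-139 lay in the 36.1 kb domain of Pde2a, a cyclic nucleotide phosphodiesterase. The counts cover H3K4me3 only and hold no measure of the microRNAs themselves.

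Most domains lay at promoters, and most of those with 1 coding gene reached farther into the gene than upstream. A peak with a GENCODE M21 transcription start within 1 kb was called a promoter peak. Of the 500 domains, 451 (90.2%) were at a promoter of any gene and 428 (85.6%) at that of a coding gene, against 53.8% and 48.4% of all autosomal cardiomyocyte peaks. A wide interval has more bases in which to meet a start. Peaks of the list were found on the reference, on a second genome or on both. Of 420 domains found on both, 399 (95.0%) were at a coding promoter, against 29 of 80 (36.2%) found on the reference alone. There were 320 domains with 1 coding gene, 64 with 2, 44 with 3 or more and 72 with none. Where a domain had more than 1, calls and levels name it by the first along the chromosome. Genes of the lists below are named themselves, so 1 domain can appear under more than 1 name. The domain with most coding starts measured 31.9 kb and held 7, among them Vegfb, a growth factor of the heart and its vessels, and Plcb3. In the 320 domains with 1 coding gene, reach was measured from the most upstream start at the domain, which can be an internal start of the gene. The mark reached a median of 19.8 kb downstream (quartiles 16.2 and 26.8 kb) and 2.91 kb upstream (quartiles 1.66 and 7.06 kb). It reached farther downstream than upstream in 280 of them (87.5%), a share near the 86.2% of 9389 other peaks with 1 coding gene, where the medians were 2.54 kb downstream and 1.28 kb upstream. The domains covered a median of 38.4% of their gene, against 8.92% for the other peaks, and 31 covered the gene whole. The genes themselves had a median length of 63.8 kb, against 31.0 kb. The plot of reach shows the exceptions among the widest, at Trak1, Pim3 and Pkig, where much of the domain lay upstream of that start. At Trak1 (26.5% of a 177 kb gene covered) and Pkig (77.3% of 67.8 kb) the start was internal and the domain lay within the gene.

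**Figure D2:**
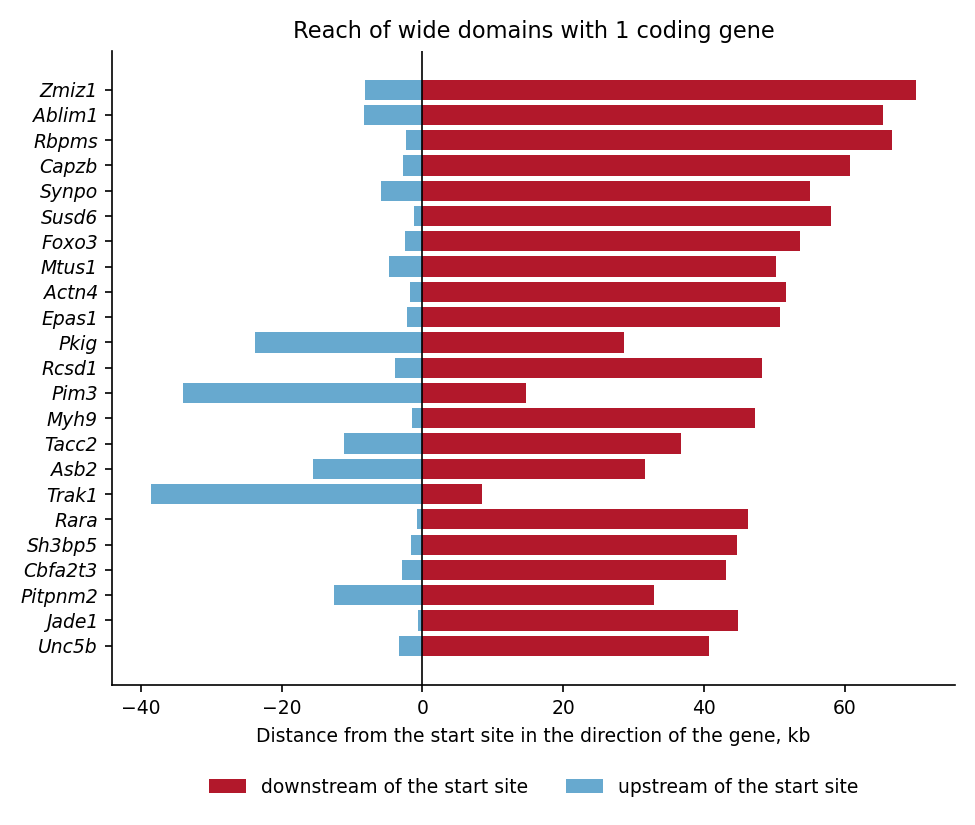
Reach in kb of domains from the 25 widest with 1 coding gene. Bars run downstream (right of 0) and upstream (left of 0) of the most upstream start at the domain, in the direction of the gene. That start can be internal to the gene. Most bars lie to the right of 0. The Zmiz1 domain, at the top, is 78.4 kb wide.

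The widest domain was that of Zmiz1, at chr14:25451047-25529411 (mm10, as deposited), 78.4 kb. Next came domains at Ablim1 (73.8 kb), which encodes an actin-binding LIM protein, 30.6 kb from the start of Tns1 (73.7 kb), which encodes the focal adhesion protein tensin, and at Rbpms (69.0 kb), an RNA-binding splicing factor of muscle. The Gm49539 domain at chr15:85644089-85710397 was the fifth (66.3 kb). The other 10 of the 15 widest included those at Capzb (63.4 kb), Col4a2 with Col4a1 (62.9 kb), Synpo (60.9 kb), the noncoding Gm47586 (59.4 kb), Susd6 (59.2 kb), Foxo3 (56.1 kb), Mtus1 (55.1 kb) and Actn4 (53.5 kb). Capzb caps actin filaments at the Z disc, Actn4 is a nonmuscle alpha-actinin, Col4a1 and Col4a2 form the collagen of basement membranes, and Foxo3 is a transcription factor. Reads in the Zmiz1 domain were 686, 862 and 742 CPM (the reads of a peak scaled to a common total of reads in all peaks) in the B6 libraries, 773, 782 and 799 in D2, 655, 672 and 779 in BXD75 and 701, 624 and 829.7 in BXD87. The strains overlapped at Zmiz1. The Tns1 domain had 673, 847 and 722 CPM in B6, 736, 703 and 750.2 CPM in D2, 616, 685 and 726 CPM in BXD75 and 715, 653 and 803 CPM in BXD87, again with overlap of all strains.

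The domains included many promoters of cardiac transcription factors. Of 31 such genes with a cardiomyocyte promoter peak, 11 (35.5%) lay at a domain, against 605 of 12843 coding genes with a promoter peak (4.71%). The median width of their promoter peaks was 14.8 kb, against 4.52 kb for all coding genes. The widest were those of Klf13 (49.3 kb, shared with E030018B13Rik), Mef2d (35.3 kb), Gata6 (35.3 kb), Irx4 (33.1 kb) and Gata4 (31.9 kb). The others were those of Zfpm1 (28.8 kb), Hand2 (28.2 kb), Meis2 (26.5 kb), Nkx2-5 (20.5 kb), Tbx20 (20.4 kb) and Klf15 (18.9 kb). Gata4, Gata6, Nkx2-5, Tbx20 and Hand2 belong to the core set that forms the heart, Zfpm1 is a GATA cofactor, and Klf15 is a regulator of metabolism in heart and liver. Hepatocytes had no promoter peak at Irx4, Hand2, Nkx2-5 or Tbx20, and promoter peaks of 5.64 kb at Gata4 and 12.8 kb at Gata6. Klf15 had promoter peaks alike in width in cardiomyocytes and hepatocytes, 18.9 and 17.7 kb. The list was not only long-marked in cardiomyocytes: 14 of its 32 genes with a promoter peak in germ cells were among the 500 widest there, 5 of 22 in hepatocytes and 3 of 30 in stem cells.

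Genes of excitation and calcium handling followed. Of 26 with a promoter peak, 7 (26.9%) lay at a domain, among them Jph2 (34.0 kb), which holds the calcium release site to the cell membrane, Popdc2 (33.4 kb), the potassium channels Kcnh2 (31.1 kb) and Kcnq1 (21.4 kb), the calcium release channel Ryr2 (25.6 kb) and the calcium store protein Casq2 (22.2 kb). Hepatocytes had a promoter peak at none of the 7. Stem cells and germ cells had narrower ones at all 7, for example 6.32 and 6.80 kb at Kcnh2, which was among the 500 widest of germ cells. Sarcomere and Z disc genes gave 3 of 22, namely Csrp3 (25.1 kb), Ldb3 (22.3 kb) and Tpm1 (19.4 kb). The peak list used here held no promoter peak of the contractile genes Myh6 and Tnnt2 or of the hormone gene Nppa, all defining genes of cardiomyocytes. Fatty acid and energy genes gave 2 of 29 (6.90%, against 4.71% of all coding genes), the fatty acid transporter Cd36 (27.5 kb) and the fatty acid binding protein Fabp3 (18.5 kb). Among the 500 widest of hepatocytes, stem cells and germ cells this list had 0 of 21, 2 of 22 (9.09%) and 0 of 25. In the same order, sarcomere and Z disc genes had 0 of 9, 0 of 17 and 1 of 17, and excitation and calcium genes 0 of 9, 1 of 24 and 2 of 23.

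**Figure D3:**
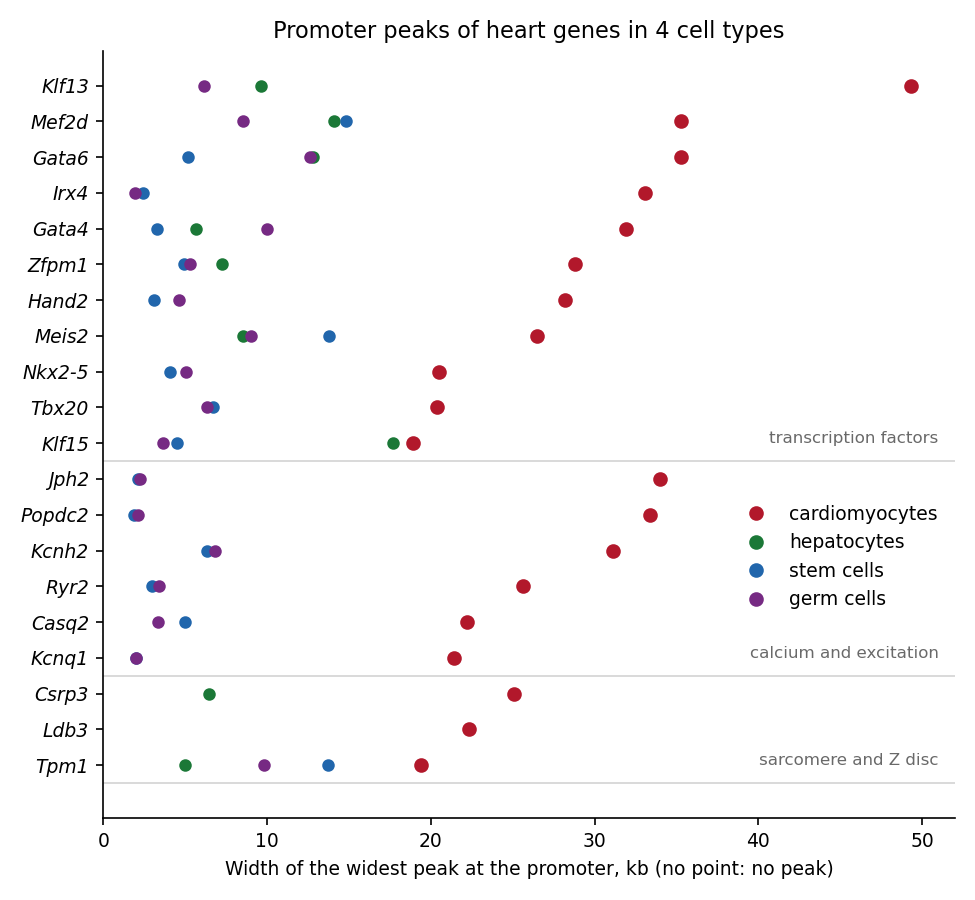
Width in kb of the widest promoter peak of genes at domains from 3 lists, by cell type. Red points (cardiomyocytes) lie right of the others, by much at Irx4 (33.1 kb) and by little at Klf15 (18.9 kb against 17.7 kb in hepatocytes).

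Other lists reached the domains too. Of 17 circadian clock genes with a promoter peak 6 (35.3%) lay at a domain, led by the repressor Nr1d1 (38.7 kb) and Per1 (27.7 kb), with Dbp (22.6 kb), Bhlhe41 (21 kb), Per2 (19.3 kb) and Tef (19.2 kb). Of 25 immediate early and stress genes there were 5, among them the survival factor Mcl1 (53.0 kb), the nuclear receptor Nr4a1 (32.0 kb), Zfp36 (28.4 kb) and Junb (27.8 kb). Growth signalling gave 4 of 28, Notch1 (36.3 kb), Vegfb (31.9 kb), Smad7 (30.4 kb) and Lifr (21.7 kb). Enzymes and readers of H3K4 methylation gave 2 of 22, Setd1b and Men1, and ribosomal protein genes 2 of 26, Rpl18 and Rps2, shares closer to that of all coding genes. Polycomb targets of other lineages gave 0 of 17, and their widest promoter peak was that of Lhx9, 13.0 kb. Among the 500 widest of hepatocytes, stem cells and germ cells the clock list had 3, 0 and 3 of 18. In the same order, immediate early and stress genes had 3 of 26, 4 of 26 and 8 of 27. Growth signalling had 2 of 24, 1 of 30 and 6 of 29. H3K4 methylation genes had 1 of 22, 4 of 18 and 3 of 21. Polycomb targets had 0 of 4, 1 of 25 and 7 of 24. Several of these shares were above those in cardiomyocytes.

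The cells were checked against markers of the types that a heart preparation holds. Of 10 cardiomyocyte markers 7 had a promoter peak, and Ryr2 lay at a domain. Of 12 endothelial markers 9 had one, and Egfl7 (27.5 kb) and Eng, in the Ak1 domain (46.3 kb), lay at domains. Fibroblast markers had promoter peaks at 8 of 12 genes and smooth muscle and pericyte markers at 8 of 10, and none of either list lay at a domain. Leukocyte markers had 1 of 10, hepatocyte markers 2 of 10, pluripotency markers 4 of 10 and meiotic markers 3 of 10. The promoter peaks of the endothelial list summed to 1482 to 1697 CPM in B6, 1540 to 1630 CPM in D2, 1333 to 1685 CPM in BXD75 and 1425 to 1466 CPM in BXD87. The cardiomyocyte preparation thus gave H3K4me3 at endothelial markers in every library, and the domains describe the preparation as labelled. In such bulk chromatin, fewer cells of a type and less of the mark per cell cannot be told apart.

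Nearly all domains coincided with a narrower peak in the other cell types. At least 1 base was shared with a hepatocyte peak at 444 domains (88.8%), with a stem cell peak at 478 (95.6%) and with a germ cell peak at 467 (93.4%), against 55.6%, 69.4% and 65.5% of all autosomal cardiomyocyte peaks. A wide interval has more bases in which to meet another peak. The other cell types' peaks covered a median of 31.9% of a domain in hepatocytes, 37.0% in stem cells and 20.7% in germ cells. The widest overlapping peak had a median of 6.92, 5.34 and 3.72 kb in the same order. Domains met a peak from the 500 widest of hepatocytes at 71 of 500 (14.2% of either list), of stem cells at 47 (9.40%, met by 48 of the stem cell list) and of germ cells at 56 (11.2%, met by 58 of the germ cell list). At 369 domains the overlapping peaks were among the 500 widest in no other cell type.

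Of the domains, 10 met a peak from the 500 widest in each of the other cell types. They were at Nr1d1, Qk, Nfib, Anp32a, Mef2d, Chd2, Kmt2e, Neat1, Nfyc and Rhof, which include an RNA-binding protein (Qk), a chromatin remodeller (Chd2), a member of the MLL family (Kmt2e) and a structural noncoding RNA of nuclear paraspeckles (Neat1). The peak met need not be at the same promoter. The promoter peak of Nr1d1 itself measured 7.55 kb in hepatocytes and 5.70 kb in stem cells, narrower than the 500 widest there. At Chd2 the widest peak measured 34.2 kb in cardiomyocytes, 33.5 kb in hepatocytes, 16.8 kb in stem cells and 7.16 kb in germ cells. Only 2 domains met no peak in any other cell type, and both were found on the reference genome alone. One was a 19.4 kb domain near Col4a1 at chr8:11383675-11403029 and the other a 19 kb domain near Arhgap26 on chromosome 18.

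Domains at a promoter that met a peak elsewhere were ranked by their width over the length of the domain that peaks covered in the other cell types, averaged over these 3. The 2 domains that met none have no ratio. Aqp1, the water channel of endothelium, had the highest ratio of these, 41.8 (24.4 kb). It was followed by 1110002E22Rik (18.9), Pde3a (18.3), a phosphodiesterase of heart muscle, Pxdn (16.9), Cbfa2t3 (16.3), Tmem204 (15.5), Mlf1 (15.5), Retreg1 (13.7), Ryr2 (13.6) and Col4a2 (13.1). Some of these genes are known from muscle (Pde3a and Ryr2) or from vessels (Aqp1), and the others were not sorted. The ratio uses the width that chose the domains, so nothing is read from which genes lead.

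Levels were given for the same domains in every cell type, as the summed CPM of the peaks centred in the domain. Each table was normalised within itself, so levels set across cell types are a description. The domains were chosen by width in cardiomyocytes and counted whole there, but elsewhere only peaks centred in them were counted. Higher values in cardiomyocytes are thus not independent of the choice, and nothing is read from them. The totals also came from 23809 peaks in cardiomyocytes, 29138 in hepatocytes, 67192 in stem cells and 67114 in germ cells. Domains took 11.1 to 14.2% of reads in peaks in the cardiomyocyte libraries. Peaks centred in them took 4.37 to 5.43% in hepatocytes, 3.20 to 3.84% in stem cells and 2.68 to 3.38% in germ cells. At Ryr2 the lowest, median and highest library had 144, 193 and 273 CPM in cardiomyocytes, 21.7, 24.2 and 33.0 in stem cells and 13.1, 18.4 and 21 in germ cells, and hepatocytes had no peak. At Hand2 they had 294, 400.3 and 533 CPM in cardiomyocytes, 32.0, 41.7 and 45.3 in stem cells and 44.6, 56.0 and 65.4 in germ cells, again with no hepatocyte peak. At Gata4 they were 286, 342 and 414 CPM in cardiomyocytes, 141, 148 and 163 in hepatocytes, 38.2, 46.4 and 56.2 in stem cells and 86.0, 114 and 141 in germ cells. In each of these 3 domains every cardiomyocyte library lay above every library of the other cell types. The choice by cardiomyocyte width and the counting of whole domains there favour this, so nothing is read from it. Among the other cell types at Gata4, the ranges of hepatocytes and germ cells met at their edge, and stem cells lay below both. At Nkx2-5 the libraries had 129, 220.5 and 281 CPM in cardiomyocytes, 6.45, 10.5 and 22.0 in hepatocytes, 50.1, 62.3 and 79.4 in stem cells and 45.0, 63.3 and 72.5 in germ cells. The ranges of stem cells and germ cells overlapped there. At Egfl7 they had 276, 318 and 420.0 CPM in cardiomyocytes, 7.72, 11.6 and 19.1 in hepatocytes, 31.0, 40.2 and 57.9 in stem cells and 16.5, 24.3 and 29.3 in germ cells.

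Per kb the domains were no denser than the next widest peaks. In CPM per kb of peak, domains had a median of 9.03 (quartiles 7.68 and 10.8), peaks of width rank 501 to 1000 had 9.27 and peaks of rank 5001 to 10000 had 10.6. All other autosomal peaks together had 6.72 (quartiles 5.23 and 11.3), with low values among the narrowest. The densest domains were at Dpm3 (17.1 CPM per kb), Slc16a13 (16), Car11 (15.9), Atp5b (15.7), the beta subunit of the mitochondrial ATP synthase, and Pnpla2 (15.4), the lipase that starts the breakdown of stored fat. Among the sparsest were those near Dbh (5.69) and at Unc5b (5.63), Hip1r (5.40) and Gpr153 (5.34). Between libraries of the same strain, domains varied less than all peaks. Domains had a median of 231 CPM and other autosomal peaks 25.4 CPM, and spread was not compared at like counts. The median coefficient of variation over 3 libraries was 9.0% in B6, 6.30% in D2, 13.5% in BXD75 and 8.51% in BXD87, against 12.3%, 11.2%, 17.6% and 11.6% over all peaks.

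The depth behind these values differed by strain. Reads in peaks numbered 6.84 to 8.34 M per B6 library, 2.62 to 4.10 M per D2 library, 7.15 to 7.65 M per BXD75 library and 10.5 to 12.8 M per BXD87 library. The share of reads in domains was 12.5 to 13.3% in B6, 11.1 to 11.6% in D2, 11.1 to 13.1% in BXD75 and 12.5 to 14.2% in BXD87.

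The founder comparison set the reads at domains in the B6 libraries against those in the D2 libraries. Between B6 and D2, 130 of 500 domains were called by edgeR's quasi-likelihood test at a Benjamini-Hochberg adjusted p under 0.05 over all 23809 peaks, 124 higher and 6 lower in B6. Over all peaks 6.51% were called, 4.06% higher and 2.45% lower in B6. The rule that chose the domains used their width on the reference genome, which is that of B6, so this contrast is not independent of the choice and nothing is read from the share. Every B6 library lay above every D2 library at 203 domains and below at 41, against 3663 and 4282 of all 23809 peaks. Each peak in the list also has an interval on a second genome. Of the domains, 420 were found on both genomes, 80 on the reference alone and 0 on the second alone. Of all 23306 autosomal cardiomyocyte peaks, 8713 were found on both, 14501 on the reference alone and 92 on the second alone. In the same order the counts were 23025, 1780 and 3646 in hepatocytes, 47033, 10033 and 8735 in stem cells and 46909, 15261 and 3259 in germ cells. The excess on the reference thus ran through the whole cardiomyocyte list, and its cause was not tested.

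The founder difference went with the width of a domain's interval on the second genome. At 68 domains it was under 50% of the reference width, all 68 were called, and all were higher in B6 with a median log2 difference of 1.22. Of all 213 peaks in that class 194 (91.1%) were called, all higher in B6, with a median of 1.06. The domains thus stood near their class. Of the 500 widest peaks of hepatocytes, stem cells and germ cells, 0, 5 and 1 were found on both genomes and fell under 50%. At 95 domains the second interval was between 50 and 90% of the reference width, and 42 were called, all higher in B6. Of all 978 peaks in that class 280 (28.6%) were called, 275 of them higher in B6. At the other 337 domains, with a second interval of at least 90% of the reference width (like width), 20 were called (5.93%), 14 higher and 6 lower in B6. Of all 22618 peaks with such like widths 4.76% were called, 498 higher and 579 lower in B6, a share near that of the domains. Like width refers to the listed intervals, and 80 of these domains were found on the reference alone. Over the 420 domains found on both genomes, the log2 ratio of the widths and the log2 difference in reads had a Pearson r of 0.92 and a Spearman rho of 0.67. Over the 257 of these with like widths the values were 0.09 and 0.01. These are correlations across domains that share the same 6 libraries, given as a description. Reference width also chose the domains, and the listed intervals and the reads come from the same series. Width and reads are thus not independent, in the calls by class or in the correlations.

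**Figure D4:**
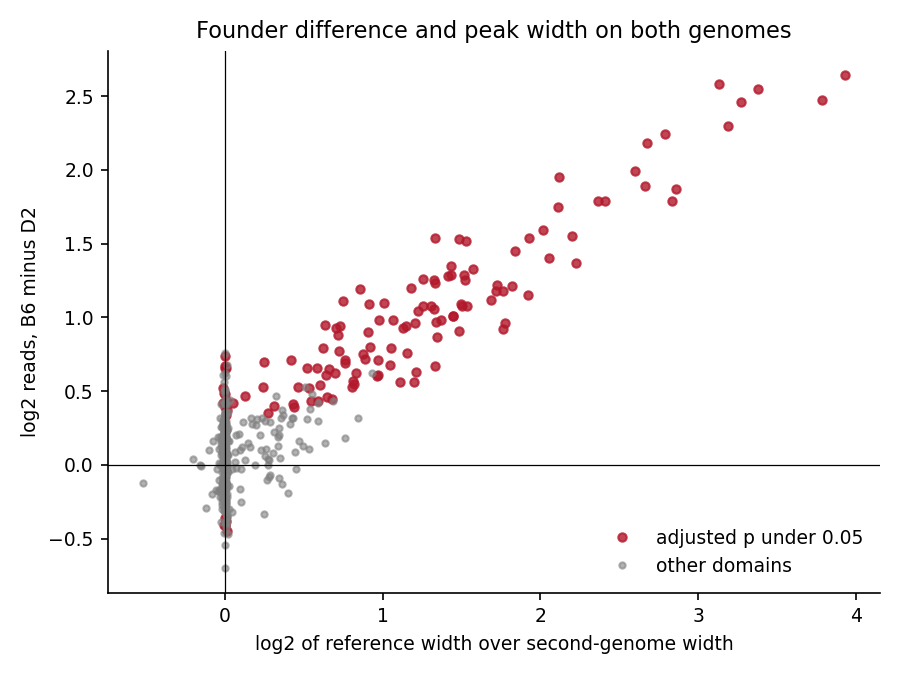
The log2 difference in reads between B6 and D2 (vertical) against the log2 ratio of reference width to second-genome width (horizontal), a point for each of the 500 domains. Called domains (red) rise along the ratio, and domains with like widths gather at a ratio of 0, where 20 of 337 were called.

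The BXD lines stood at the B6 level in the domains with a short second interval. In the 68 domains under 50% the median level was 278 CPM in B6 and 112 CPM in D2, with 259 CPM in BXD75 and 291 CPM in BXD87. Their median width was 29.3 kb on the reference and 9.50 kb on the second genome. Per kb of its reference width such a domain had a median of 9.0 CPM in B6 and 3.91 CPM in D2, and per kb of its second-genome width 28.3 CPM in B6 and 12.3 CPM in D2. Both lines lay nearer to B6 than to D2 at 127 of the 130 called domains, and at 0 did both lie nearer to D2. By second interval this was 68 of 68 under 50%, 40 of 42 between 50 and 90% and 19 of 20 at like width. It thus held also where the intervals were alike. The same was not counted over all called peaks, so nothing is read from these counts. Each line carries D2 alleles at part of its genome, but genotypes were not used here. Which interval the reads of D2 and of the BXD lines were counted over is not stated in the labels or files, and its part in the founder difference was not tested.

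The 10 called domains with the largest difference all had a short second interval. At St3gal4, a sialyltransferase, the domain at chr9:35104272-35133192 measured 28.9 kb on the reference and 1.90 kb on the second genome. It had 232, 233 and 221 CPM in B6, 31.2, 33.2 and 47.6 CPM in D2, 184, 236 and 222 CPM in BXD75 and 231, 187 and 245 CPM in BXD87. Only the D2 libraries were low, and the difference between B6 and D2 was 2.64 on the log2 scale (SE 0.16, adjusted p = 2.9e-07 by edgeR). At Elk3, an ETS factor of vessels, the 39.0 kb domain measured 3.75 kb on the second genome, with 278, 293 and 298 CPM in B6, 44.1, 48.2 and 56.7 CPM in D2, 274, 315 and 277 CPM in BXD75 and 313, 264 and 320.4 CPM in BXD87. Its log2 difference was 2.55 (SE 0.12, adjusted p = 1.2e-08 by edgeR). At Epas1, the hypoxia factor of endothelium, the 53.0 kb domain measured 5.82 kb on the second genome, with 508, 537 and 532 CPM in B6 and 99.5, 98.8 and 123 CPM in D2 (log2 difference 2.30, adjusted p = 6.2e-08 by edgeR). The same held at Ank (2.58), E030018B13Rik with Klf13 (2.24), Acss1 (2.18), Susd6 (1.99) and Dsp (1.95), the desmosome gene of heart muscle, given as log2 differences. Among the cardiac transcription factors, Gata6 (35.3 kb, 12.6 kb on the second genome), Mef2d (35.3 kb and 18.0 kb) and Nkx2-5 (20.5 kb and 12.4 kb) were likewise called higher in B6, by 0.91, 0.61 and 0.77.

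The 20 calls at domains of like width are given in full. This class was looked at after its values were seen, and its share of calls was near that of all peaks of like width, so nothing is read from which genes it holds. The 14 domains called higher in B6 were those near Prss52 and at Csrp3, Retreg1, Ldb3, Irx4, Bag3, Fabp3, Rnf151, 1110002E22Rik, Tbx20, Cox17, Ankrd9, Meis2 and Usp2. The first 3 of these, near Prss52 and at Csrp3 and Retreg1, were found on the reference alone. The log2 differences ran from 0.34 (Usp2) to 0.74 (near Prss52). The 6 called lower were at Plxnd1, Baiap2, Itpkb, Ski and Nrarp and near Ece1, with differences from -0.45 (Plxnd1) to -0.36 (Nrarp). Plxnd1 is a semaphorin receptor and Nrarp a Notch target of vessels.

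At Ldb3, which encodes the Z disc protein cypher, the domain at chr14:34574849-34597154 had 207, 262 and 233 CPM in B6, 141, 156 and 146 CPM in D2, 197, 188 and 205 CPM in BXD75 and 229.8, 262 and 267 CPM in BXD87. All B6 libraries lay above all D2 libraries, and the BXD lines lay nearer B6. The means were 234 ± 27.9 CPM in B6 and 148 ± 7.37 CPM in D2 (SD, n = 3 each), a log2 difference of 0.66 (SE 0.10, adjusted p = 0.00116 by edgeR). At Fabp3, which carries fatty acids in heart muscle, the libraries had 157, 159 and 164 CPM in B6, 117, 122 and 103 CPM in D2, 149, 138 and 145 CPM in BXD75 and 186, 193 and 194 CPM in BXD87. The strains did not overlap at Fabp3, and the founders differed by 0.48 on the log2 scale (SE 0.08, adjusted p = 0.003 by edgeR). At Irx4, on chr13:73258498-73291565, the libraries had 245, 259.5 and 274 CPM in B6, 189, 184 and 171 CPM in D2, 213, 252 and 264 CPM in BXD75 and 314, 286 and 348 CPM in BXD87. The founder difference was 0.52 (SE 0.10, adjusted p = 0.00978 by edgeR), with no overlap of B6 and D2.

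At Csrp3, the muscle LIM protein, the 25.1 kb domain was found on the reference alone and had 199, 189 and 241 CPM in B6, 145, 126 and 124 CPM in D2, 157, 235 and 229 CPM in BXD75 and 284, 273 and 308 CPM in BXD87. It differed between the founders by 0.67 (SE 0.15, adjusted p = 0.0159 by edgeR), and its BXD87 libraries lay above all others. At Tbx20 the libraries had 265, 241 and 293 CPM in B6, 217, 184 and 195 CPM in D2, 228, 301 and 254 CPM in BXD75 and 324, 325 and 329.8 CPM in BXD87, with a founder difference of 0.42 (SE 0.11, adjusted p = 0.039 by edgeR). At Plxnd1 the order was the reverse, with 274, 337 and 256 CPM in B6, 379.6, 387 and 418 CPM in D2, 354, 278 and 278 CPM in BXD75 and 242, 236 and 249.9 CPM in BXD87. D2 was high there, without overlap with B6, and the difference was -0.45 (SE 0.12, adjusted p = 0.0381 by edgeR).

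Cardiac transcription factors outside the calls included Gata4 and Hand2. Gata4 had 309, 343 and 341 CPM in B6 and 342, 312 and 297 CPM in D2, which overlapped (log2 difference 0.06, SE 0.10, adjusted p = 0.738 by edgeR). Hand2 had 404, 367 and 442 CPM in B6 and 357, 294 and 341 CPM in D2, without overlap, but its difference of 0.29 (SE 0.12) had an adjusted p of 0.134 by edgeR. Ryr2 had 181, 226 and 194 CPM in B6 and 183, 168 and 144 CPM in D2 (log2 difference 0.28, SE 0.13, adjusted p = 0.21 by edgeR).

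**Figure D5:**
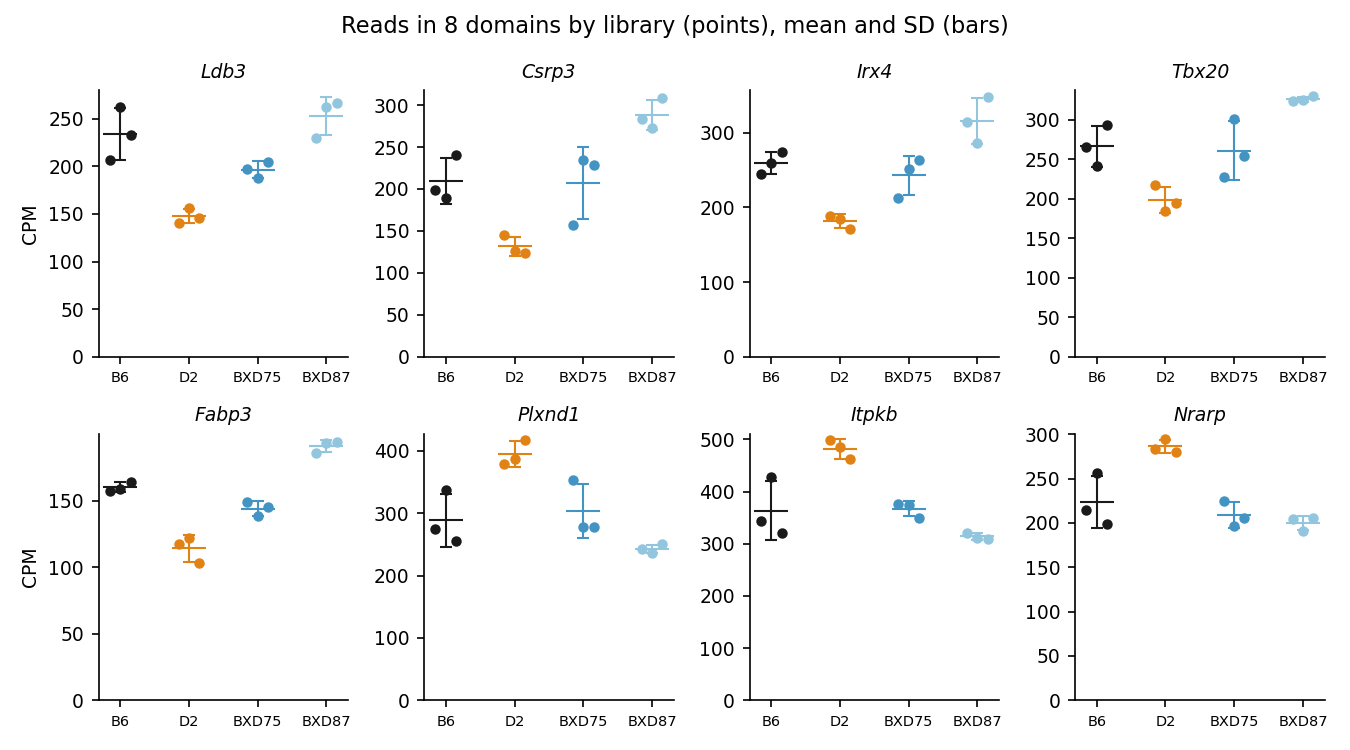
CPM of 8 domains with a second interval of at least 90% of the reference width (Csrp3 was found on the reference alone; points, 1 per library; bars, mean and SD of 3 libraries) in B6, D2, BXD75 and BXD87, each panel starting at 0. D2 is the lowest strain at Ldb3, Csrp3, Irx4, Tbx20 and Fabp3 and the highest at Plxnd1, Itpkb and Nrarp.

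Marker sums moved with these differences. The promoter peaks of the cardiomyocyte markers, all 7 that had one, summed to 710.2 to 823 CPM in B6, 527 to 558 CPM in D2, 654 to 752 CPM in BXD75 and 878 to 1029 CPM in BXD87. Smooth muscle and pericyte markers summed to 381 to 423 CPM in B6, 458 to 492 CPM in D2, 359 to 417 CPM in BXD75 and 375 to 414 CPM in BXD87. Fibroblast sums were 409 to 510.3 CPM in B6 and 464 to 528 CPM in D2, and endothelial sums overlapped as given above. The cardiomyocyte sum thus ordered the strains as Ldb3, Csrp3, Irx4 and Fabp3 did, with D2 lowest and BXD87 highest, and its part in their founder differences was not tested. The calls of like width also leaned on single libraries. Of the 20, Ldb3, Fabp3 and Rnf151 passed in all 13 alternative fits, Irx4 and Bag3 in 12, and each of the others missed the threshold in 3 to 9. Leaving out B6 replicate 2 gave 67 calls (24 higher and 43 lower in B6), leaving out B6 replicate 1 or 3 gave 6 each, and leaving out D2 replicate 1, 2 or 3 gave 9, 4 and 5.

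Between the BXD lines 1 of 500 domains was called, against 0.529% of all peaks (0.319% higher and 0.210% lower in BXD75). It was Fabp3, with 149, 138 and 145 CPM in BXD75 and 186, 193 and 194 CPM in BXD87, a log2 difference of -0.41 (SE 0.08, adjusted p = 0.0376 by edgeR). The lines did not overlap there, but the call was lost in 8 of 13 alternative fits. At an unadjusted p under 0.05 by edgeR there were 120 domains, against 4359 of all 23809 peaks. DESeq2 called 18 domains, all lower in BXD75, against 461 of all peaks (1.94%). The median log2 difference over domains was -0.15, against 0.01 over all peaks, and 103 of 500 were positive. At Ryr2 the lines had 152, 210.0 and 191 CPM in BXD75 and 230.1, 273 and 270.3 CPM in BXD87. At Csrp3 the difference was -0.48 (SE 0.14, adjusted p = 0.175 by edgeR). The first BXD75 library had low values at Csrp3, Retreg1 and Susd6, and without BXD75 replicate 2 the count was 20, all lower in BXD75.

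The last comparison asked whether founder differences at domains depended on cell type. No more than 76 domains had a hepatocyte peak with 50% reciprocal overlap, so most domains could not be matched. At 14 of them the B6 minus D2 difference was larger in cardiomyocytes than in hepatocytes by edgeR's test of the interaction. Of 8137 matched peaks 6.21% were called in that direction, 5.25% in the other and 11.5% in either. The domains were chosen by their width on the reference in cardiomyocytes alone. This contrast is thus not independent of the choice, and nothing is read from the count or its direction. All 6 matched domains with a second-genome width under 50% were called, 6 of 14 between 50 and 90%, and 2 of 56 of like width. Among all matched peaks the same classes gave 66 of 72 (91.7%), 160 of 531 (30.1%) and 706 of 7534 (9.37%), so the like-width domains were not above their class. Without cardiomyocyte B6 replicate 2 the count was 23, 19 positive and 4 negative. The call at St3gal4 showed the pattern. Its cardiomyocyte domain had 228 ± 6.77 CPM in B6 and 37.3 ± 8.96 CPM in D2, while its hepatocyte peak, 27.5 kb on the reference and 29.2 kb on the second genome, had 312 ± 1.4 CPM in B6 and 291 ± 4.76 CPM in D2 (SD, n = 3 each). The interaction was 2.58 on the log2 scale (SE 0.13, adjusted p = 8.0e-10 by edgeR). Of the pair called at like widths, Bag3, a chaperone partner of the Z disc, had 302 ± 18.1 CPM in B6 and 215 ± 11.6 CPM in D2 cardiomyocytes and 123 ± 7.80 CPM in B6 and 119 ± 10.6 CPM in D2 hepatocytes (SD, n = 3 each). Its interaction was 0.49 (SE 0.13, adjusted p = 0.0164 by edgeR), and that of Noct, a gene with a circadian rhythm, was 0.46 (SE 0.13, adjusted p = 0.0302 by edgeR).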

How the data were processed

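The authors' deposited tables were used as given. Counts are raw reads for each peak and library, deposited without normalisation. The deposited peak lists hold other values, the start and end of each peak in mm10 and in a second, unnamed genome. The submitters' processing notes name mm10 and the tools CASAVA (1.8), BWA (0.5.10) and MACS (1.4.2). Peak calling, pooling and the counting of each strain's reads are not described in the labels or files. Whether positions count from 0 or 1 is not given either, so intervals are printed as deposited. In germ cells 73 of 79 sample columns were not used.

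Domains, gene lists and tests were chosen with earlier results of these data known. Named domains were the 15 widest, those of cardiac transcription factors, up to 10 called per contrast, 10 by ratio to other cell types, 2 without overlap, 3 on each side of the width threshold, up to 4 per other gene list (all members at domains are given), and 5 each by highest and lowest CPM per kb. The 20 calls of like width were named after their values were seen.

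Counts were tested over all peaks with edgeR 4.0.16 in R 4.3.3 (filterByExpr, TMM, glmQLFit with robust estimation, quasi-likelihood F test), with all 4 strains in 1 fit and Benjamini-Hochberg adjustment. DESeq2 1.42.0 was an alternative. CPM are reads scaled to a common total of reads in peaks after TMM scaling. In other cell types a domain's level is the summed CPM of peaks centred in it. The edgeR step was tested on simulated data. The median log2 of all peaks lay between -0.03 and 0.02 in each contrast and setting. Replicates of a strain differed by more than sampling noise (chi-square per degree of freedom 1.54 to 17.5). Promoters came from GENCODE M21 basic transcripts, and sequences from RefSeq (GRCm38.p6). Some items that these rules name are not reported here.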

Additional observations from a re-analysis of the deposited data

Results flagged for a closer look

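At 10 domains the founder difference in cardiomyocytes differed from that in hepatocytes by edgeR's interaction test in every one of 17 alternative fits. The cardiomyocyte minus hepatocyte difference on the log2 scale was 2.58 at St3gal4, 1.54 at Coq8a, which serves coenzyme Q synthesis, 1.38 at Cxadr, the receptor of coxsackievirus and adenovirus, 1.37 at Egln3, an oxygen-sensing prolyl hydroxylase, and 1.09 at Igtp, an interferon-induced GTPase. It was 1.04 at Nfyc, 0.90 at Pik3r1, 0.89 at Got1, 0.88 at Akap1 and 0.72 at the noncoding Gm37419. In cardiomyocytes the second-genome width of these domains was below 90% of the reference width, for example 10.8 kb against 29.2 kb at Coq8a and 16 kb against 21.4 kb at Gm37419. Their matched hepatocyte peaks had second-genome widths of 12.7 to 29.2 kb, none below the reference width, for example 19.3 kb against 19 kb at Coq8a. Coq8a had 301 ± 27.8 CPM in B6 and 118 ± 4.40 CPM in D2 cardiomyocytes, and 259.9 ± 18.8 CPM in B6 and 291 ± 53.0 CPM in D2 hepatocytes (SD, n = 3 each). Igtp and Cxadr were called in the opposite direction in hepatocytes, with founder differences of -0.52 (adjusted p = 0.00209 by edgeR) and -0.36 (adjusted p = 0.0213 by edgeR). A further 4 domains were called, some of them not under every alternative: 0.49 at Bag3, 0.46 at Noct, 0.46 at Irf2bpl and 0.45 near Dmrt1. Bag3 and Noct had like widths on both genomes. The domains were chosen by their cardiomyocyte width on the reference, so these calls are not independent of the choice. The part of the intervals in these differences was not tested.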

How the results depend on the processing

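The founder count of 130 was 82 over the 250 widest and 215 over the 1000 widest domains, 20 with a second-genome width of at least 90%, and 52 over the 500 widest by second-genome width (the last pair of settings was chosen after seeing the data). Leaving out 1 library gave 96 to 182, the most without B6 replicate 2. The 20 calls of like width were 42 by DESeq2, 45 with only the founders fitted, 12 with the replicate block and 4 to 67 with 1 library left out. The BXD count of 1 was 18 by DESeq2, 0 with 50 reads in every library of a strain, with only both lines fitted or over the 250 widest, 2 over the 1000 widest, and 0 to 20 with 1 library left out, the most without BXD75 replicate 2. The interaction count of 14 was 130 (117 positive) when matched at any overlap, 2 at like widths, and 10 to 23 with 1 library left out, the most without cardiomyocyte B6 replicate 2 (19 positive and 4 negative). Same-number libraries correlated over 0.1 in 8 of 18 pairs (-0.734 to 0.650), so numbers were not taken to pair. With the replicate block the counts were 115, 0 and 15. Over the 250 and 1000 widest, domains met a peak at 229 and 840 in hepatocytes, 245 and 919 in stem cells and 237 and 889 in germ cells, met one of the widest at 22 and 194, 19 and 146, and 22 and 164, and were at promoters in 232 and 858. At least 50% was covered at 154, 179 and 38 of the 500. Over all pairs of a named domain and an alternative, 507 kept the call, 100 missed the threshold and 0 reversed. D2 libraries were the shallowest (2.62 M reads at the least). The cause of these changes was not tested.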
